A study of Mus musculus with 10 samples.

Results

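Nr4a3 and Tox are transcriptional regulators best known for setting the state of T cells, and the rows of these 2 genes were taken from 55416 rows of colon RNA counts. In colons of mice lacking Vista, an immune checkpoint protein encoded by Vsir, the Nr4a3 row was 2.17-fold higher and the Tox row 1.51-fold lower than in wild-type (WT) colons. Both genes were chosen because they had passed the pooled genotype test on these same libraries, so their genotype differences are descriptions and carry no test. The study asked how loss of Vista changes the colon in colitis caused by dextran sulfate sodium (DSS), which damages the epithelium. Mice of both genotypes drank water with 2% DSS over 7 days, and no group without DSS was analysed here. RNA came from whole colon. Of the 10 libraries, 5 were knockout and 5 WT. A first deposited table held knockout 1 to 3 and WT 1 to 3, and a second held knockout 4 and 5 and WT 4 and 5. The labels of the first table call the genotype "VISTA knockdown" and those of the second "Vista-/-", and all 5 were treated here as Vista knockout. The sources used here give no age, sex or strain. The labels do not tie each library to its own animal throughout, and p-values then reflect only library-to-library spread, which may be technical.

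Nr4a3 encodes an orphan nuclear receptor of the NR4A family, which binds DNA without a known natural ligand. It is an immediate early gene: its transcript appears quickly after many stimuli, and in T cells after engagement of the antigen receptor through calcium and NFAT. Tox encodes an HMG-box protein that binds DNA and remodels chromatin. It is needed for CD4 T cell development and for innate lymphoid cells, and in persistently stimulated CD8 T cells it acts with NR4A factors to hold the exhausted state. Neither gene is restricted to T cells, and NR4A genes respond in epithelial, stromal and myeloid cells too.

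The rows could be read as these genes because of where they lie. Counts did not follow gene names throughout these tables, as seen on chromosome 4 from genes that all cells use. Only that chromosome was examined in this way. On mm10 chromosome 4, all 16 such genes from the start to 59025573 held at least 1095 counts over the 10 libraries (median 10999.5), whereas the 28 beyond had a median of 48 counts and 8 of them reached 500. This stretch ends, by construction, at the last gene before the first that failed, so that all 16 passed is no evidence for it. Gene names are used only inside it, for 322 protein-coding rows, and it held 6.01% to 6.67% of each library's counts. Tox (ENSMUSG00000041272) lies at chr4:6686353-6991557 on the minus strand, with 11 exonic blocks and 7609 exonic bases in GENCODE M21. Nr4a3 (ENSMUSG00000028341) lies at chr4:48045153-48086447 on the plus strand, with 9 blocks and 5987 bases. No other annotated gene overlaps Nr4a3. The antisense gene Gm11802 shares 260 exonic bases with Tox and had 0 counts. Whether counting used strand was not stated, and without it reads from the shared bases cannot be assigned to either gene. Around Nr4a3 the 3 nearest protein-coding rows on each side were all counted, from 1124 counts for Invs to 23468 for Sec61b, the gene of a translocon subunit. Around Tox, Nsmaf held 4477, Sdcbp 40575, Rab2a 32862, Chd7 9297 and Car8 3308, while Cyp7a1, a liver gene of bile acid synthesis, held 0.

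The sequence just upstream of Nr4a3 is printed because it is dense in TGACG, the core of the motif that CREB-type factors bind and through which many immediate early genes answer to cAMP and calcium. The RefSeq window for the promoter (GRCm38.p6, 250 bases before to 50 after the gene start, plus strand) holds 4 cores counted on both strands, of which 3 lie in the 98 bases before the first GENCODE transcript, chr4:48045055-48045152. Capitals mark the cores, and CGTCA is the core read on the other strand.
Nr4a3 upstream: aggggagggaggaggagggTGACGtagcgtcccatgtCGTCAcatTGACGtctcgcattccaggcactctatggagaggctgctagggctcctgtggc
Among 32851 promoter windows of the same length, 20.8% held at least 1 such core and 0.231% held 4 or more. The full palindrome TGACGTCA, the AP-1 motif TGANTCA and the NR4A motif AAAGGTCA were not in the Nr4a3 window, while 1.79%, 7.81% and 1.51% of all windows held them. A match is a description of letters, not of binding. For Tox no window was printed.

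Some facts of the whole series bear on these rows. Totals ran from 3691322 to 4071238 counts per library. CPM below is a count divided by its library's total and scaled to 1000000 counts. A principal component analysis of log2 CPM set WT 4 and WT 5 apart along its leading axis (37.6% of the variance), with scores of 44.4 and 48.3 against −25.3 to 5.88 elsewhere. The row of the deleted gene, Vsir, lies on chromosome 10, outside the readable stretch, and its 27 to 97 counts in knockout and 0 to 82 in WT libraries do not check the labels. Intestinal epithelium was recognisable from the epithelial adhesion gene Cdh17, at 3087 to 3823 CPM in every library, which alone does not show that the tissue was whole colon. Of 18 T cell markers only Sit1, an adapter that dampens antigen receptor signalling, lies inside the readable stretch, and of 7 myeloid markers 0 do. The cells that carried Nr4a3 and Tox RNA therefore could not be identified, and in whole tissue fewer cells of a type and less RNA per cell cannot be told apart.

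Nr4a3 was scarce. Knockout libraries 1 to 5 held 49, 70, 87, 121 and 50 counts, equal to 12.2, 17.2, 23.3, 29.9 and 13.1 CPM. WT libraries 1 to 5 held 23, 38, 40, 27 and 41 counts, equal to 6.22, 9.64, 10.3, 7.25 and 11.1 CPM. All 5 knockout values lay above all 5 WT values, but the lowest knockout library, number 1, was close to the highest WT library, number 5. Their 95% exact Poisson intervals, which cover counting error only, overlapped, from 9.01 to 16.1 CPM in knockout 1 and from 7.97 to 15.1 in WT 5. Knockout 3 and 4 were the highest, and their intervals, from 18.6 to 28.7 and from 24.8 to 35.7 CPM, lay wholly above those of all WT libraries. The mean was 19.1 ± 7.43 CPM in knockout and 8.90 ± 2.08 in WT (SD, n = 5 each), and the fitted log2 fold change was 1.12 ± 0.26 (SE). Over all 9736 rows tested, 2.71% had all knockout libraries above all WT libraries and 4.51% had all below. edgeR's quasi-likelihood test called 5.63% of rows in the pooled comparison, 2.7% as higher and 2.93% as lower, at an adjusted p of 0.05. Among the 252 tested rows of the readable stretch it called 8.73%, with 1.98% higher and 6.75% lower. Nr4a3 and Tox were picked from such calls, so these shares are background only.

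**Figure D1:**
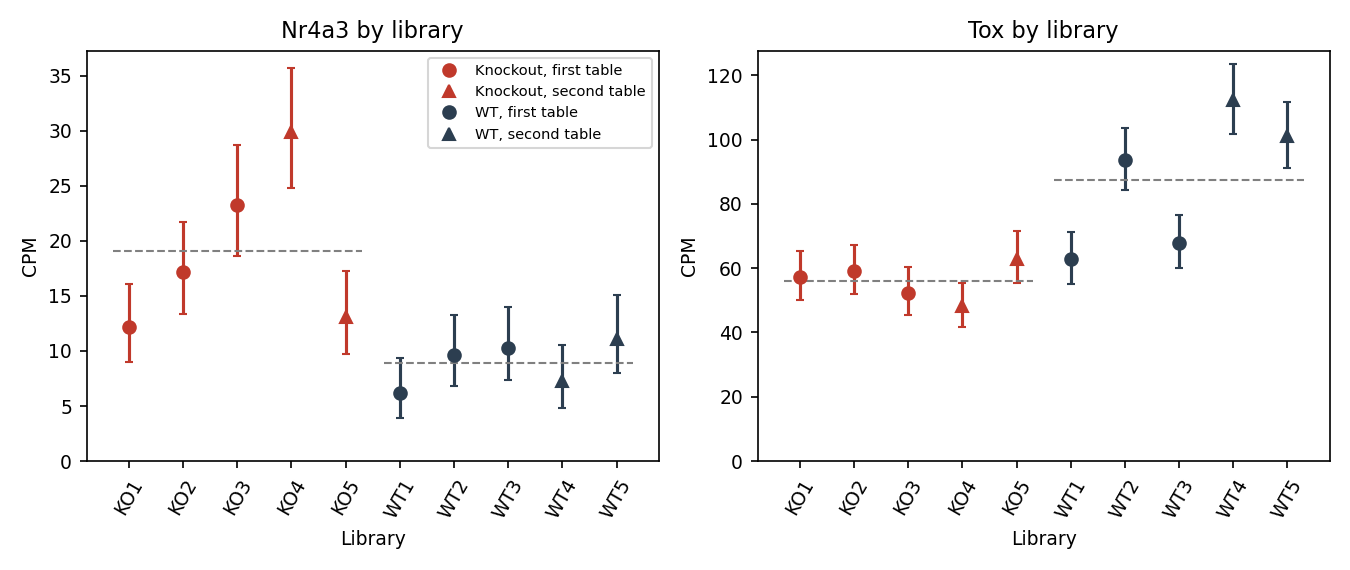
CPM of Nr4a3 and Tox in each of the 10 libraries (x axis, library; y axis, CPM), with bars for the 95% exact Poisson interval of the count and dashed lines for genotype means. Nr4a3 runs from 12.2 to 29.9 in knockout against 6.22 to 11.1 in WT libraries, and Tox from 48.1 to 63.0 against 62.8 to 112.3.

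The spread of Nr4a3 was wider among knockout libraries. The ratio of the highest to the lowest was 2.45 among knockout and 1.78 among WT libraries. The index of dispersion, the variance of the counts relative to counting error alone, was 11.5 in knockout and 1.80 in WT. It grows with the mean count, which was higher in knockout, and separate libraries usually exceed counting error, so the index is a description and the spreads were not tested against each other.

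Tox was counted more deeply. Knockout libraries 1 to 5 held 231, 241, 196, 195 and 240 counts, or 57.4, 59.2, 52.4, 48.1 and 63.0 CPM. WT libraries 1 to 5 held 232, 369, 264, 418 and 373 counts, or 62.8, 93.7, 67.9, 112.3 and 101.0 CPM. The knockout values were tight and the WT values wide, and WT 1 lay just below knockout 5, so the genotypes overlapped. WT 2, 4 and 5 were the high libraries, while WT 1 and 3 were near the knockout range. The mean was 56.0 ± 5.82 CPM in knockout and 87.5 ± 21.4 in WT (SD, n = 5 each), and the fitted log2 fold change was −0.59 ± 0.15 (SE). For Tox the index of dispersion was 2.38 in knockout and 19.6 in WT, the reverse of the order seen in Nr4a3.

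Per exonic length, Tox was the more abundant transcript in both genotypes. Tox stood at 7.36 ± 0.76 CPM per kilobase in knockout and 11.5 ± 2.81 in WT, and Nr4a3 at 3.19 ± 1.24 and 1.49 ± 0.35 (SD, n = 5 each). The distance between the 2 transcripts was smaller in knockout libraries. Nr4a3 counts per 100 Tox counts, a ratio inside a library that no scaling between libraries can move, were 21.2, 29.0, 44.4, 62.1 and 20.8 in knockout 1 to 5. In WT 1 to 5 they were 9.91, 10.3, 15.2, 6.46 and 10.99. Every knockout library lay above every WT library in this ratio, which combines the values used to choose both genes.

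Each gene was also set against 1 neighbouring gene in the same library, Erp44 or Rab2a. Both hardly differed between genotypes, so these ratios repeat the values on which Nr4a3 and Tox were chosen and add no support. They were not the nearest rows: Stx17 lies nearer to Nr4a3, and Nsmaf and Car8 nearer to Tox. Ratios to those were not taken. Erp44, an endoplasmic reticulum chaperone gene that follows Nr4a3 on the chromosome, had a log2 fold change of 0.05 (adjusted p = 0.683, edgeR). Nr4a3 counts per 1000 Erp44 counts ran from 24.4 to 63.0 in knockout and from 15.0 to 25.0 in WT, and the ranges overlapped only between knockout 1 and WT 5. Rab2a, a vesicle traffic gene beyond Tox, had 842 ± 19.9 CPM in knockout and 859 ± 15.5 in WT (SD, n = 5 each), with a log2 fold change of −0.0009 (adjusted p = 0.995, edgeR). Tox counts per 1000 Rab2a counts ran from 56.8 to 76.6 in knockout and from 71.6 to 131.9 in WT, with WT 1 below knockout 5 alone. Of the 11 tested neighbours of the 2 genes, none passed at an adjusted p of 0.05 by edgeR in the pooled comparison, where 5.63% of all rows passed, a share too low for this count to set the neighbours apart. The lowest adjusted p values were 0.061 for Stx17, a membrane fusion gene (log2 −0.38), and 0.076 for Car8 (−1.62). In the second table alone Car8, a carbonic anhydrase-related gene beside Tox, was lower in knockout than in WT colons (−3.37, adjusted p = 0.017, edgeR). There WT 4 and 5 stood at 225 and 309 CPM, against 42.2 to 69.5 in WT 1 to 3 and 25.2 to 56.1 in all knockout libraries. Another list of genes that all cells use had 8 readable members, and in the pooled comparison 0 of them passed by edgeR, beside 5.63% of all rows. It was not an independent set. Sdcbp, Rab2a and Sec61b were also neighbours, and Rps20, Dnaja1, Vcp and Sec61b were among the genes that defined the readable stretch. The chaperone gene Dnaja1 of that list passed in the first table alone (log2 0.69, adjusted p = 0.019, edgeR) and was higher in the second table among WT libraries (0.77, adjusted p = 0.034).

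Within each deposited table the signs were the same. Over all rows, edgeR called 6.06% in the first table (3.1% higher, 2.96% lower) and 0.856% in the second (0.534% higher, 0.322% lower). In the first table the log2 fold change of Nr4a3 was 1.03 ± 0.27 (SE), from means of 17.5 against 8.72 CPM, and in the second it was 1.23 ± 0.47, from 21.5 against 9.18. For Tox the first table gave −0.37 ± 0.15, from 56.3 against 74.8 CPM, and the second −0.94 ± 0.20, from 55.6 against 106.7. The Tox difference was thus numerically larger in the second table, where the WT libraries stood apart from all others. Whether a genotype difference differed between tables was tested as an interaction, and 2.05% of all rows passed (1.76% higher, 0.298% lower). The interaction was −0.57 ± 0.25 for Tox (adjusted p = 0.328) and 0.20 ± 0.55 for Nr4a3 (adjusted p = 0.910) in edgeR, and neither passed. Without WT 4 and 5 and without the table covariate, the log2 fold change was 1.15 for Nr4a3 and −0.39 for Tox. In the first table, leaving out WT 2 alone gave −0.19 for Tox.

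**Figure D2:**
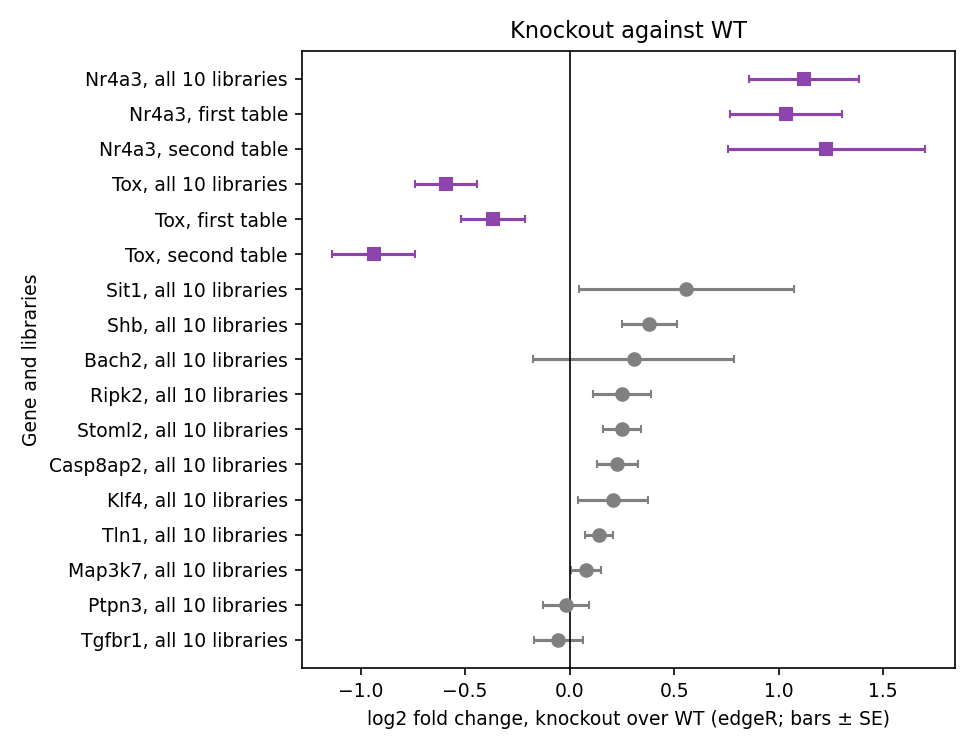
Log2 fold change of knockout over WT (x axis, with SE bars) for Nr4a3 and Tox over all libraries and in each table, and for the 11 tested genes of the T cell list over all libraries (y axis). Nr4a3 stands at 1.03 to 1.23 and Tox at −0.94 to −0.37, while the list genes lie between −0.05 for Tgfbr1 and 0.56 for Sit1.

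A comparison that the choice of genes did not use is that between tables inside a genotype. Among WT libraries, Tox was at 106.7 CPM in the second table and 74.8 in the first, a log2 difference of 0.49 ± 0.18 (SE) that did not pass (adjusted p = 0.161, edgeR). Nr4a3 was at 9.18 and 8.72 CPM, a difference of 0.04 ± 0.41 (adjusted p = 0.972, edgeR). Among knockout libraries the differences were −0.08 ± 0.18 for Tox (adjusted p = 0.960) and 0.24 ± 0.36 for Nr4a3 (adjusted p = 0.940) in edgeR. Over all rows, 4.13% passed between tables among WT (1.05% higher and 3.08% lower in the second) and 0.0411% among knockout libraries. In the readable stretch, 1.59% were higher and 2.38% lower among WT libraries.

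In WT 4 and 5, where Tox was at its highest, the lymphocyte genes Bach2, Pax5 and Cd72 were low. Bach2, a repressor that keeps T and B cells from terminal differentiation, had 27.1, 36.8 and 37.3 CPM in WT 1 to 3 and 4.57 and 7.31 in WT 4 and 5. The log2 difference between tables among WT libraries was −2.53 (adjusted p = 0.001, edgeR). The B cell factor gene Pax5 had −3.86 and Cd72, a B cell receptor inhibitor gene, −2.76, with adjusted p values of 0.001 and 0.002 in edgeR. Calls among the named genes were not limited to lymphocyte genes. The stromal gene Svep1 was also lower in the second table (−0.93, adjusted p = 0.032, edgeR). Car8 (2.197), the ciliary gene Anks6 (1.61) and Dnaja1 (0.77) were higher, with adjusted p values of 0.001, 0.003 and 0.034 in edgeR. Anks6 was named for its likeness to Tox, which favoured a higher value there. Bach2 was the only call of the 11 tested genes of the T cell list in this comparison. Over all rows 4.13% were called, so 1 call of 11 does not set the list apart. The other 10, whose signs differed, did not pass, nor did Lyn (−0.80, adjusted p = 0.061, edgeR) or Tox itself. Over the 3 readable B cell markers of 8 (Pax5, Cd72 and Lyn), the summed level was 179 to 212 CPM in WT 4 and 5, 372 to 570 in WT 1 to 3 and 388 to 683 in knockout libraries. Most of this sum was Lyn, at 186 and 161 CPM in WT 4 and 5, so it follows Lyn more than Pax5 or Cd72. In the first table the mean of Pax5 was 61.9 CPM in knockout and 114.6 in WT, and that of Cd72 54.9 and 91.9, whereas Lyn had 360 and 297. Sit1, the only readable T cell marker of 18, was near the floor, with 106 counts in all. It stood at 0.81 CPM in each of WT 4 and 5 (3 counts each) and at 1.62 to 4.82 in WT 1 to 3 (6 to 19 counts). In knockout libraries it was at 1.34 to 4.46 CPM (5 to 18 counts). Its difference between tables among WT libraries was −1.963 and did not pass (adjusted p = 0.118, edgeR). Nr4a3 was at 7.25 and 11.1 CPM in WT 4 and 5, which were the second lowest and the highest of the WT libraries. The part of these genes in the Tox difference was not tested.

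**Figure D3:**
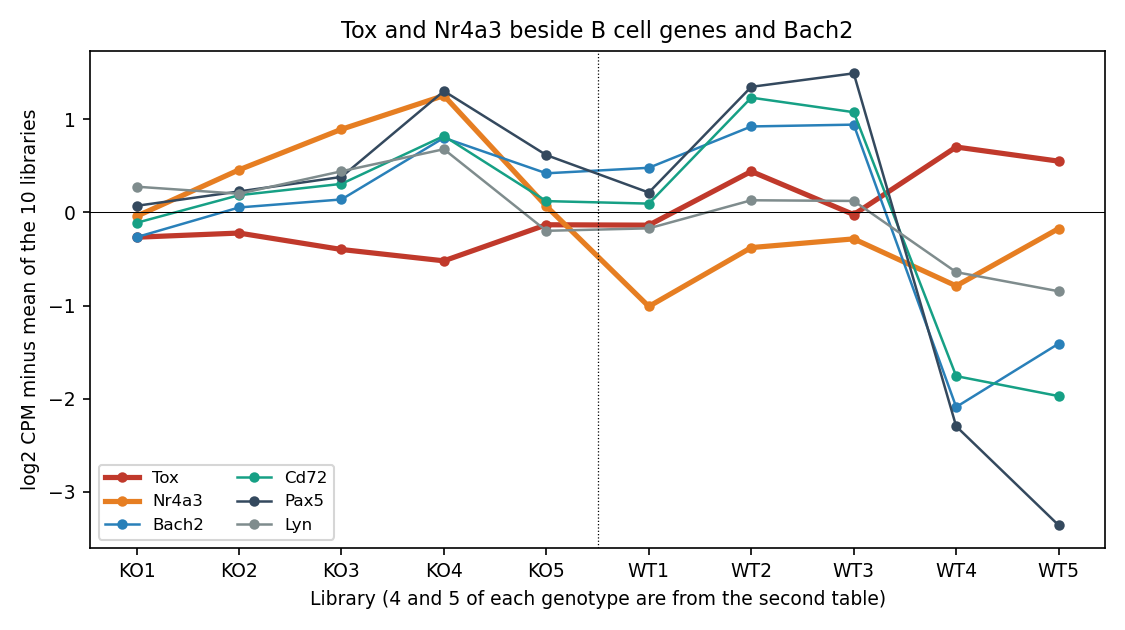
Log2 CPM minus the mean of the 10 libraries (y axis) for Tox, Nr4a3, Bach2 and the B cell genes Cd72, Pax5 and Lyn in each library (x axis); lines only join a gene's points. In WT 4 and 5 Tox is high while Bach2, at 4.57 and 7.31 CPM, Cd72 and Pax5 are at their lowest.

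Other genes of T cell fate, receptor signalling and adhesion showed no call in the pooled comparison. Of 29 listed genes, Klf4 among them, 12 lay in the readable stretch and 11 were tested, and 0 passed in either direction, against 5.63% of all rows, which for 11 genes is hardly different. Their median log2 fold change was 0.23, beside 0.02 for all rows tested. Shb, an adapter gene of antigen receptor signalling, had 0.38 ± 0.13 (SE, adjusted p = 0.110), Stoml2 0.25 ± 0.09 (0.122) and Casp8ap2 0.23 ± 0.10 (0.191) in edgeR. Ripk2, the kinase gene downstream of the NOD receptors, stood at 108 ± 24.3 CPM in knockout and 92.5 ± 8.49 in WT (SD, n = 5 each). Tln1, the gene of the integrin activator talin, had 0.14, Map3k7, the TAK1 kinase gene, 0.08, Ptpn3 −0.02 and Tgfbr1, a TGF-beta receptor gene beside Nr4a3, −0.05. Bach2, at 23.5 ± 6.75 CPM in knockout and 22.6 ± 15.8 in WT, had 0.31 ± 0.48 (adjusted p = 0.733, edgeR). That pooled value averages opposite signs, since Bach2 fell in the first table (−0.77, adjusted p = 0.030) and had 2.33 in the second (adjusted p = 0.056) by edgeR. Shb rose in the first table alone (0.62, adjusted p = 0.019, edgeR) and had 0.01 in the second (adjusted p = 0.985). In the pooled comparison Sit1 had 0.56 ± 0.51 (0.539), and the remaining gene, Tal2, held 12 counts in all and was not tested. None of 15 checkpoint and exhaustion genes, Pdcd1 and Ctla4 among them, lay in the stretch, and neither did the other 5 members of the NR4A and TOX families.

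Of 22 immediate early genes only Klf4 was readable beside Nr4a3. Klf4, an epithelial differentiation factor gene in the colon, stood at 2741 ± 577 CPM in knockout and 2423 ± 580 in WT (SD, n = 5 each), with a log2 fold change of 0.21 ± 0.17 (SE, adjusted p = 0.476, edgeR). Whether other immediate early genes moved with Nr4a3 was therefore not seen. Of 5 readable genes on a chemokine list (Ccl19, Ccl21a, Ccl21b, Ccl27a and Ccl27b), only Ccl27a passed the count filter, with −0.42 ± 0.20 (adjusted p = 0.222, edgeR). Ccl19 and the Ccl21 genes, which guide naive T cells into lymphoid tissue, did not pass the filter and were not tested. Ccl19 held 40 counts, Ccl21b 10 and Ccl27b 0. Ccl21a held 111 counts, with 16.7 CPM in knockout 2, 6.41 in knockout 3 and at most 0.99 in every other library. The Ccl21 genes are near-identical copies whose reads the counting could have split.

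Among readable markers of other cell types, Penk, the enkephalin precursor gene of neurons and some immune cells, fell in knockout colons, at 78.9 ± 26.9 against 162 ± 33.4 CPM (SD, n = 5 each; adjusted p = 0.031, edgeR). In the pooled comparison the epithelial genes Cdh17, Esrp1 and Spink4 did not pass, with log2 fold changes of 0.04, −0.19 and −0.11 and adjusted p values of 0.839, 0.191 and 0.822 in edgeR. The smooth muscle gene Tpm2, the stromal genes Svep1 and Col15a1 and the 3 B cell markers did not pass in it either. In the second table alone Pax5 (log2 3.73, adjusted p = 0.031) and Cd72 (2.37, adjusted p = 0.041) were called higher in knockout by edgeR, while in the first they had −0.85 and −0.70 and did not pass (0.070 and 0.093). The part of these cells in the Nr4a3 and Tox differences was not tested.

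The genes whose pattern was most like Nr4a3 were Kif24, a kinesin gene of centriole control, Smc2, the gene of a condensin subunit, and Melk, a mitotic kinase gene. They were the top of 217 readable protein-coding rows ranked by Pearson's r of log2 CPM over the 10 libraries, with r of 0.91, 0.89 and 0.86 and Spearman's rho of 0.83, 0.85 and 0.77. Being picked as the highest, these coefficients are descriptions. Smc2 ran as 122, 138, 180, 256 and 144 CPM in knockout 1 to 5 and as 95.2, 132, 138, 120 and 157 in WT 1 to 5, so knockout 4 and 3 were highest in Smc2 as in Nr4a3. With the mean of each genotype in each table removed, r was 0.95 for Kif24, 0.99 for Smc2 and 0.92 for Melk, so the likeness was not only that of genotype means. Without knockout 3 and 4, the libraries farthest from the Nr4a3 median, r was 0.715, 0.70 and 0.49. The genotype differences of these genes did not pass, with log2 fold changes of 0.42, 0.40 and 0.42 and adjusted p values of 0.197, 0.184 and 0.156 in edgeR. Their positive sign was favoured by the choice of genes for likeness to Nr4a3, and these differences are descriptions. At the other end was Hint2, a mitochondrial hydrolase gene, with r of −0.91.

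**Figure D4:**
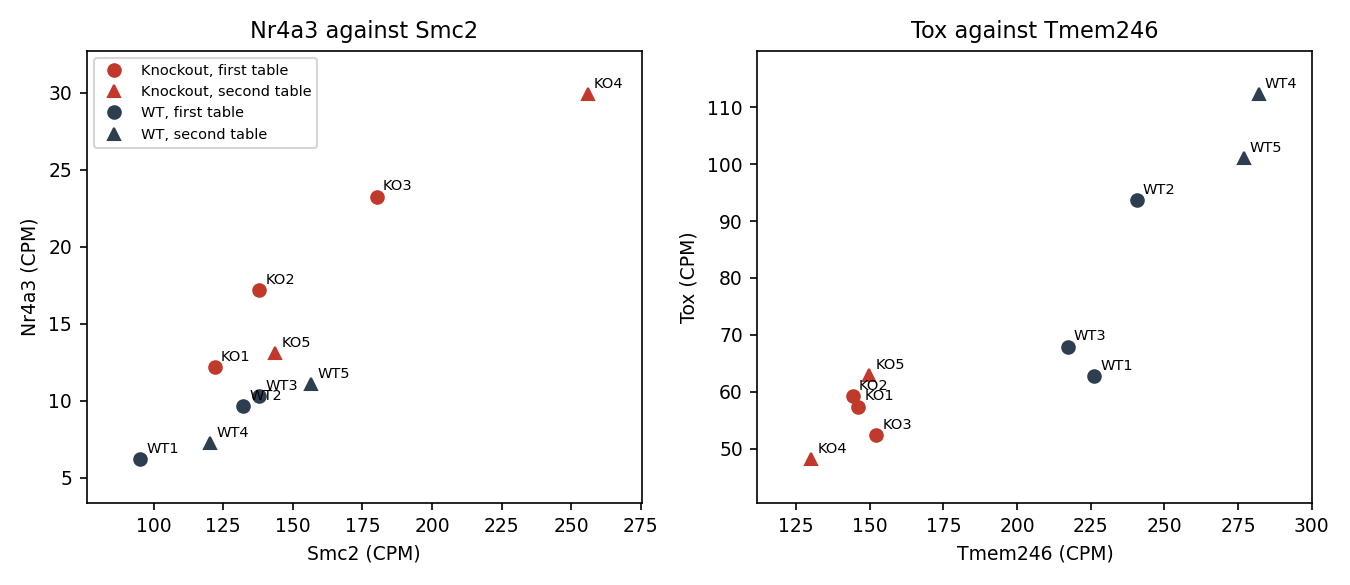
CPM of Nr4a3 (y axis) against Smc2 (x axis) and of Tox against Tmem246 in the 10 libraries, coloured by genotype with triangles for the second table. Knockout 4 is highest in both Nr4a3 and Smc2, at 29.9 and 256 CPM, and WT 4 is highest in both Tox and Tmem246, at 112.3 and 282 CPM.

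For Tox the most alike were Anks6, a ciliary gene, Rgp1, a gene of Golgi traffic, and Tmem246, a Golgi enzyme gene that processes membrane anchors, with r of 0.91, 0.91 and 0.90 and rho of 0.88, 0.75 and 0.87. Tmem246 was lower in knockout colons (log2 −0.75 ± 0.09 SE, adjusted p = 0.003, edgeR), and so was Anks6 (−1.39 ± 0.33, 0.032). Rgp1 had −0.32 ± 0.11 and did not pass (0.1004). Anks6 stood at 61.2 and 78.8 CPM in WT 4 and 5, against 19.2 to 24.2 in WT 1 to 3 and 8.89 to 17.1 in knockout libraries. In the first table alone Anks6 had −0.63 and did not pass (adjusted p = 0.062, edgeR), while Tmem246 had −0.59 (0.008). A lower knockout level was largely built in, since these genes were picked for likeness to Tox over the libraries on which Tox was chosen. Their genotype differences are therefore descriptions too. With genotype and table means removed, r was 0.40 for Anks6, 0.47 for Rgp1 and 0.71 for Tmem246. The likeness to Tox thus lay more in the means of the groups than that to Nr4a3 did, by these coefficients. Without WT 4 and 5, the libraries farthest from the Tox median, r was 0.78, 0.74 and 0.81. The lowest r, −0.86, belonged to Dnaic1, a ciliary dynein gene.

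Leaving out each library in turn kept the sign of both genes. The pooled log2 fold change of Nr4a3 ran from 0.88, without knockout 4, to 1.27, without knockout 5. The value for Tox ran from −0.68, without WT 1, to −0.49, without knockout 4. Knockout 4 thus had the highest Nr4a3 and the lowest Tox, and its absence made both differences smallest among these 10 omissions.

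**Figure D5:**
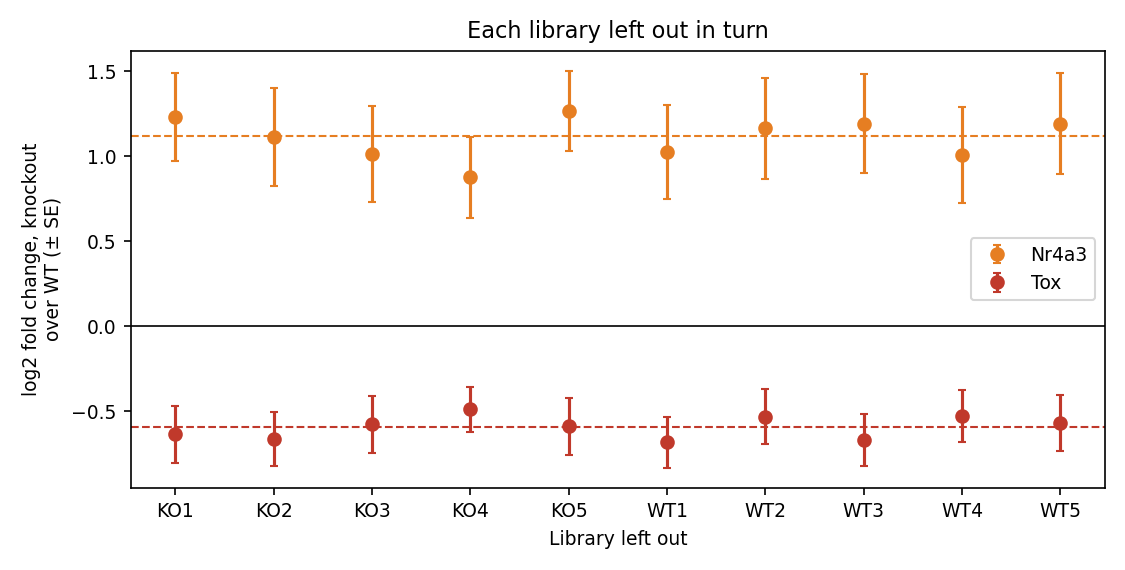
Pooled log2 fold change of knockout over WT (y axis, with SE bars) for Nr4a3 and Tox with each library left out in turn (x axis); dashed lines mark the values with all 10 libraries, 1.12 and −0.59. All Nr4a3 values lie between 0.88 and 1.27 and all Tox values between −0.68 and −0.49.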

How the data were processed

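Counts per Ensembl gene identifier were deposited by the authors without normalisation. Per the submitters' processing notes, HISAT2 aligned the reads and featureCounts 2.0.1 assigned them to genes, with the build given as GRCh38 (human) for the first table's libraries and mm10 for the others. Annotation and strand setting are not given in the sources used here. GENCODE M21 named 52083 of 55416 rows, and unnamed rows stayed in totals and tests. The members and gene lists were chosen with earlier results of these data known. On chromosome 4, Atp6v0d2 and Srsf12, of tissue-restricted expression, were left out of the universally used genes after they were seen, and a gene passed with 500 counts. CPM used library totals. edgeR 4.0.16 in R 4.3.3 (TMM, its expression filter, quasi-likelihood test, Benjamini-Hochberg over all rows, threshold 0.05) was fitted on all rows with the table as covariate, on each table alone, and with 1 mean per genotype and table. The code was tested on simulated data. Named genes are Nr4a3, Tox, readable members of the lists, 3 neighbours on each side and the 3 rows of highest Pearson's r (log2 CPM, prior count 2). Alternatives were no filter, DESeq2 1.42.0, voom (limma 3.58.1), library totals, TMM from chromosome 4 rows, no covariate, omission of WT 4 and 5, and of each library. Any 1 library limits precision at 23 to 121 counts for Nr4a3 and 195 to 418 for Tox. Promoter windows came from RefSeq (GRCm38.p6). 1 marker gene is not reported here.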

Additional observations from a re-analysis of the deposited data

Results flagged for a closer look

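The genotype difference differed between the 2 tables in 5 of the named genes by edgeR's interaction test, which 2.05% of all rows passed. The interaction was 3.10 for Bach2, 3.08 for Cd72, 4.58 for Pax5, −2.86 for Car8 and −1.84 for Anks6 on the log2 scale, with adjusted p values of 0.003, 0.006, 0.004, 0.004 and 0.020. Neither Nr4a3 nor Tox was among them.

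In 9 of 102 groups of 5 libraries examined, 1 library stood apart from the other 4 of its genotype, where chance at 1 in 20 gives 5.1. Knockout 4 was low in Klf4 (1720 CPM). Knockout 5 was high in Ccl27a (25.7 CPM) and Svep1 (139 CPM) and low in Sec61b (476 CPM). Knockout 3 was high in Car8 (56.1 CPM), and WT 1 was low in Tgfbr1 (156 CPM). In genes of few counts, knockout 1 was high in Ccl19 (4.22 CPM), WT 3 in Ccl19 (3.09 CPM) and WT 4 in Ccl21b (2.15 CPM). No library stood apart in Nr4a3 or Tox.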

How the results depend on the processing

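No paired analysis was possible because knockout and WT libraries carry no common replicate numbers in the labels. Over 17 alternatives the pooled difference of Nr4a3 was 0.88 to 1.27 and that of Tox −0.68 to −0.39, with 0 changes of sign. Each gene was past the adjusted p of 0.05 in 8 of the 17. Among the 10 omissions of 1 library, Nr4a3 did not pass in 8 and Tox in 7. Among the 7 other settings, Nr4a3 did not pass in 1 and Tox in 2. Leaving out 1 library gave 0.82 to 1.25 for Nr4a3 and −0.45 to −0.19 for Tox in the first table, and 0.52 to 1.69 (lowest without knockout 4) and −1.16 to −0.75 in the second, where the lone library of a genotype is assumed to vary like the others. The interaction of Nr4a3 ran from −0.51 to 0.67, its table difference from −0.28 to 0.32 within WT and from −0.47 to 0.71 within knockout, and that of Tox within knockout from −0.29 to 0.10, so all 4 changed sign. Pooled calls over all rows numbered 548 of 9736, 1260 with no filter, 840 with DESeq2, 78 without WT 4 and 5 and the covariate, and 223 (without WT 4) to 1028 (without knockout 5) as single libraries were left out. The others that moved the count by over 1.5 times were knockout 1 (308) and 2 (261) and WT 1 (311), 2 (237) and 5 (262). The cause was not tested.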
